A study of Mus musculus with 8 samples.

Results

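The 71 genes described here carry the Gene Ontology term immune system process in the deposited gene table and are what remains of its 117 immune rows once the MHC chains, guanylate-binding and Tgtp GTPases, Oas proteins, granzymes, chemokines, globins, keratins and 21 single genes (among them Cd74, Cd8a, Lck, Pdcd1 and Lcn2) are set aside. That step removed 42 rows. A further 4 rows were left out because tumor 37 held 90% or more of their normalized counts, and no remaining immune row was annotated to the myofibril. The table has 752 genes in all. The 4 genes left out for tumor 37 (Spink5, Pla2g2f, Klk7 and Hrnr) had all of their normalized counts there, and the largest share of tumor 37 among the genes kept was 70.3%, in Endou.

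RNA came from 8 subcutaneous tumors of MC38, a colon adenocarcinoma line of C57BL/6 mice, grown in germ-free mice of that strain with wild-type genotype and dissected on day 23. Both groups received an antibody against PD-1 by intraperitoneal injection. Tumors 11, 17, 18 and 19 had the antibody alone, and tumors 36, 37, 39 and 40 had the antibody and gavage of Fusobacterium nucleatum ATCC-25586, an anaerobe of the mouth and gut. The sources used here do not give the animals' age, and the line is a transplanted one placed under the skin, not in the colon. The question is what F. nucleatum does to gene expression in tumors of mice on this therapy. Values below are log2 of a normalized read count plus 1 unless FPKM, a level scaled for transcript length and library size, is named, always in the tumor order just given, and a difference is the mean of the F. nucleatum tumors minus the mean of the anti-PD-1 tumors.

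In a subcutaneous tumor most genes of this kind are expressed by leukocytes that enter it. T cells read peptides on MHC molecules through the T cell receptor and its CD3 chains, pass the signal on through adaptors such as LAT, and are tuned by costimulatory and inhibitory receptors. Natural killer (NK) cells use a partly shared set of receptors, myeloid cells sense microbial and damage signals, and the immunoproteasome and the TAP transporter, which interferon-gamma induces in most cells, supply peptides for MHC class I. In bulk RNA, fewer cells of a type and less RNA per cell cannot be told apart.

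Most of the 71 genes were lower with F. nucleatum. The mean was lower in 65 and higher in 6, with a median log2 difference of -1.52, whereas of all 752 genes 46.9% were lower and 53.1% higher, with a median of 1.18. The table holds only genes that the authors had selected in this same contrast, by a p-value under 0.05 and a log2 difference beyond 1 in either direction, so neither count tests a direction. The 65 lower genes include receptors and signalling proteins of T cells (Cd3d, Lax1, Themis, Ctla4), NK receptors (Klrb1b, Klrk1, Klrd1), the peptide supply of MHC class I (Psmb8, Psmb9, Tap1) and myeloid genes (Itgax, Bcl2a1d, Slamf8). The 6 higher genes are Alas2, Add2, Mylpf, Mb, Endou and Pla2g2d, of which Add2, Endou and Pla2g2d were named after their values were seen. Mylpf and Mb encode proteins of skeletal muscle, and Alas2 an enzyme of heme synthesis in red cell precursors, so the annotation covers more than leukocyte genes.

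**Figure D1:**
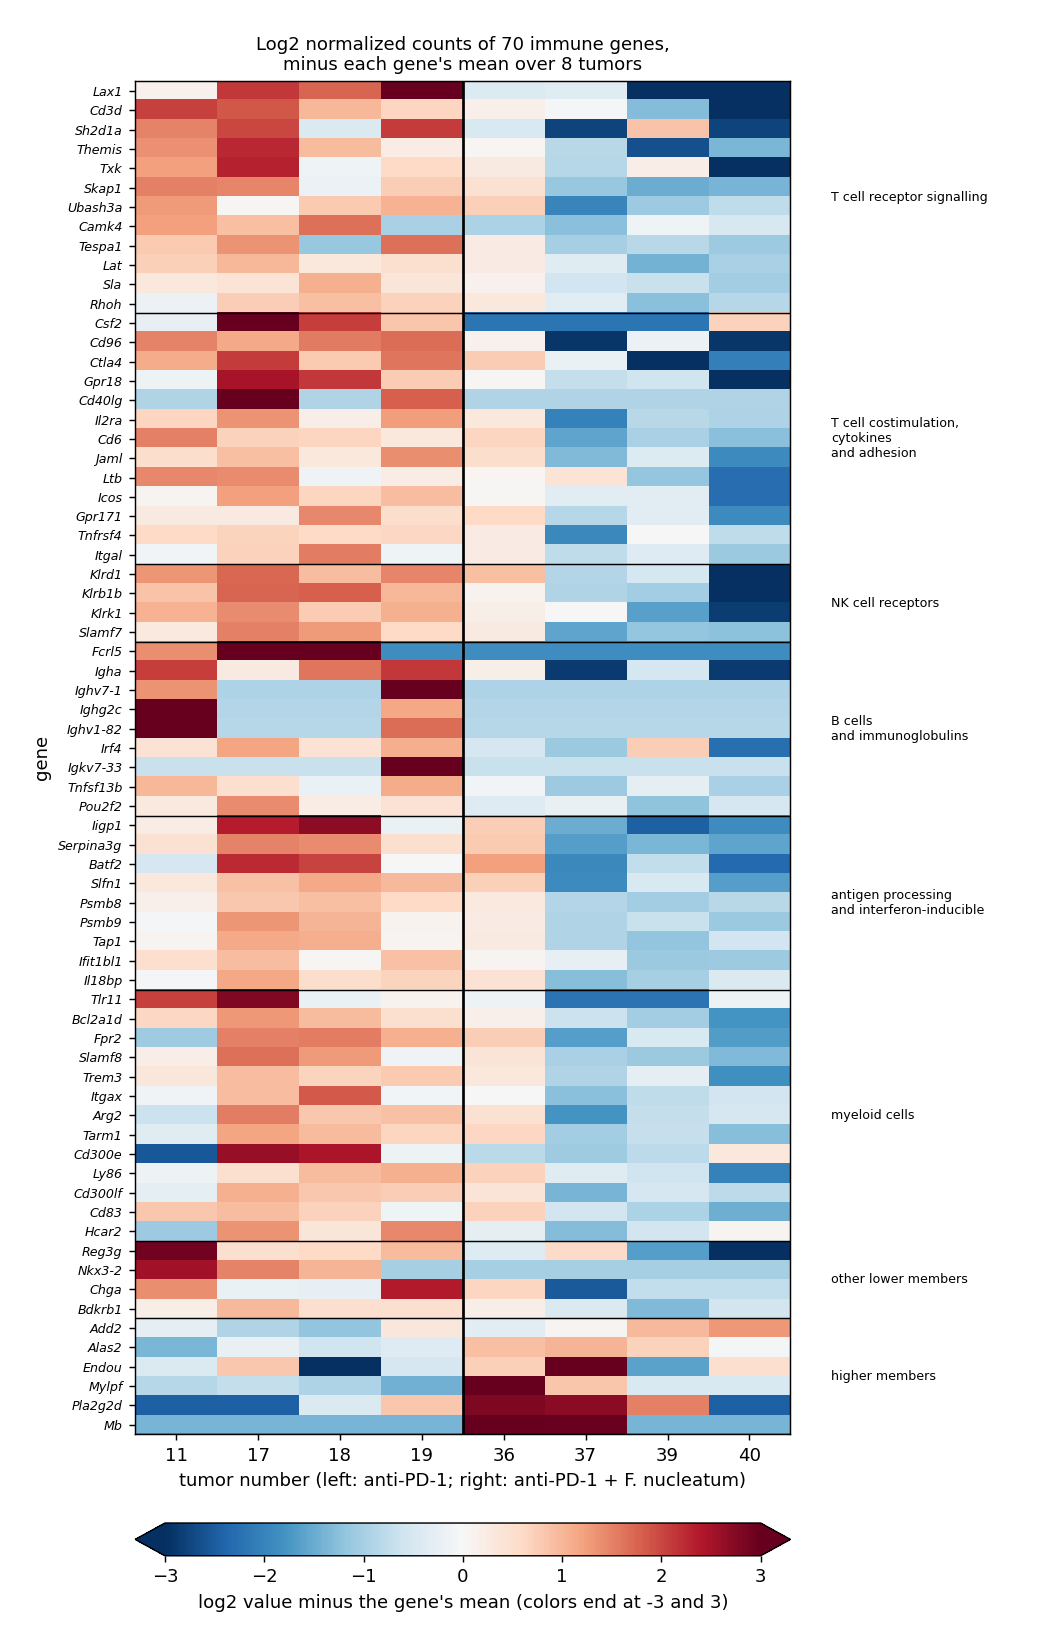
Log2 normalized counts of 70 of the 71 genes (rows, grouped by role) in the 8 tumors (columns, with the anti-PD-1 tumors on the left), each gene centred on its mean over the tumors. Most of the lower genes are red on the left and blue on the right, while the column of tumor 36 is paler than those of tumors 37, 39 and 40.

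The authors' deposited table gives a false discovery rate (FDR) below 0.05 to 6 lower genes and 1 higher gene of the 71, and "fell" and "rose" are used only of these. Among all genes there, 6.25% were lower with such an FDR and 15.2% higher. The 6 lower genes are 8.45% of the 71, close to that background. Among lower genes alone the shares with such an FDR were 9.23% (6 of 65) and 13.3% (47 of 353). Values were fully separated between the groups of 4 in 18 lower genes and 2 higher genes, against a background of 12.4% lower and 7.18% higher over the table. Centring each tumor on the median of the table, which shifts every difference by -0.61, gave 42 lower and 0 higher. That median comes from genes selected in this contrast, and the share over the table after centring was not computed. Without centring, the shares without overlap among lower genes alone were 27.7% (18 of 65) and 26.3% (93 of 353), which are close. A limma fit across the table, adjusted with the genes outside it set to a p of 1, called 0 of the 71 and 0 of the 752 genes. Voom on recovered reads also called 0 of the 752, with 258 of them and 34 of the 71 at an unadjusted p under 0.05. At an unadjusted limma p under 0.05 there were 39 lower (54.9%) and 2 higher (2.82%) genes of the 71, where the table has 27.5% lower and 15.4% higher. Among lower genes alone these were 39 of 65 and 207 of 353, which are close shares. The labels do not say that each tumor came from a separate mouse, so these p-values measure only the spread between the tumors.

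**Figure D2:**
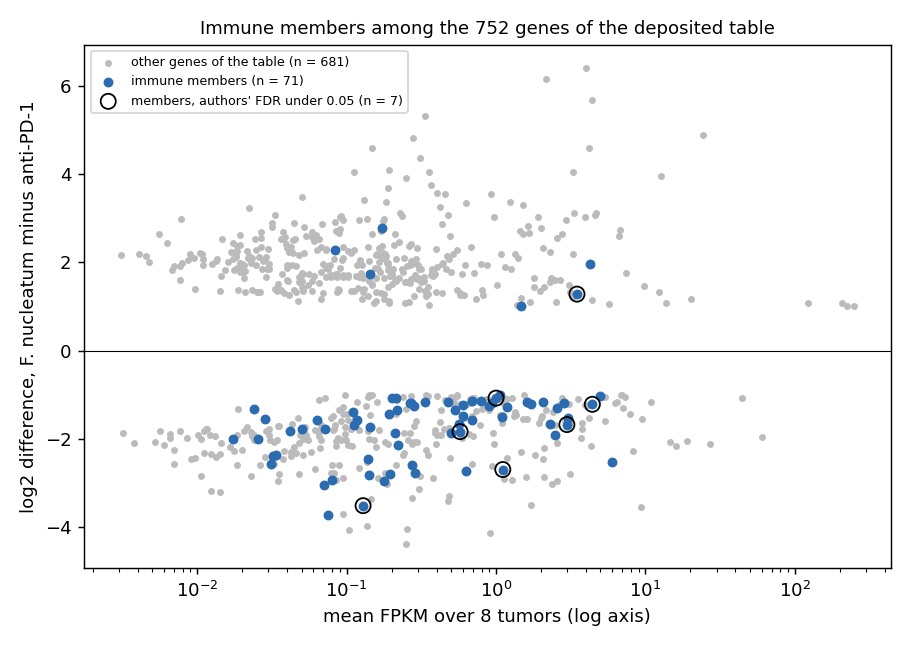
Log2 difference (vertical axis, F. nucleatum minus anti-PD-1) against the mean FPKM over 8 tumors (horizontal log axis) for the 71 genes (blue) and the other genes of the table (grey), with circles around the 7 of the 71 to which the authors' deposited table gives an FDR below 0.05. The lowest of the 71 lies at -3.73 and the highest at 2.79, and no gene lies between -1 and 1 because the table was selected on this difference.

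The libraries differed in how much of the table they carried. Recovered reads over the 752 genes ranged from 97511 to 308139 per tumor and relative size factors from 0.644 to 1.27. The 71 genes held 11893 to 24429 reads in the anti-PD-1 tumors and 5803 to 18818 in the F. nucleatum tumors. Their median level was 0.281 FPKM, 20 of them had a mean of at least 1 FPKM, and 11 had fewer than 100 reads over all 8 tumors. Tumors 36 and 37 stood apart in marker genes of other tissues. The 17 of 20 skeletal muscle markers in the table summed to 2.72 to 4.04 FPKM in the anti-PD-1 tumors and 3.47 to 461.7 FPKM in the F. nucleatum tumors, highest in tumor 36. The 17 of 20 keratinocyte markers summed to 1.53 to 1.92 and 1.60 to 310.2 FPKM, highest in tumor 37, and Krt5 and Krt14 were at 0 in every anti-PD-1 tumor. The 7 of 13 T cell markers in the table summed to 2.99 to 8.26 FPKM in the anti-PD-1 tumors and 0.611 to 2.61 FPKM in the F. nucleatum tumors, highest there in tumor 36. The 2 of 10 dendritic cell markers in the table summed to 2.10 to 7.29 and 0.851 to 2.13 FPKM in these groups. None of the 12 macrophage, 11 neutrophil or 10 B cell markers was in the table. The part of these tissues and cells in the results below was not tested, and the identity of the MC38 cells could not be checked because the table holds selected genes.

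T cell receptor signalling was covered by 13 of the 71 genes, all lower, with a median log2 difference of -1.77. The higher genes were placed in a role of their own. That every gene of this and each other role was lower follows from that assignment and is not a result. Cd3d (chromosome 9, 44981786 to 44987339, GRCm38), a chain of the CD3 complex, had log2 values of 6.40, 6.21, 5.34 and 4.99 in the anti-PD-1 tumors and 4.50, 4.29, 3.05 and 0.00 in the F. nucleatum tumors. Every F. nucleatum tumor lay below every anti-PD-1 tumor, and tumor 40 had no read. The level was 0.479 ± 0.222 FPKM with the antibody alone and 0.0989 ± 0.0855 FPKM with the bacterium (mean ± SD, n = 4 each). The authors' deposited table lists it with an FDR of 0.306.

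Lax1, a transmembrane adaptor that dampens antigen receptor signals, had 3.26, 5.26, 4.88 and 6.19 with the antibody alone and 2.73, 2.76, 0.00 and 0.00 with F. nucleatum. The groups did not overlap, and this gene fell by 3.52 ± 1.0 (SE) on the log2 scale, with an FDR of 0.0365 in the authors' deposited table. It rested on 164 reads in all, 91 of them in tumor 19. Sla, an adaptor that limits receptor levels on T cells, was the most deeply covered of the 13 with 4826 reads, and it fell by 1.08 ± 0.302 (SE, FDR of 0.0213 in that table). Its values were 9.38, 9.47, 10.14 and 9.42 against 9.19, 8.50, 8.39 and 8.03, so tumor 36 lay close under the lowest anti-PD-1 tumor. Themis, a T cell protein needed for thymocyte selection, had 5.40, 6.30, 4.98 and 4.26 with the antibody alone and 4.09, 3.19, 1.39 and 2.65 with F. nucleatum, again without overlap. Lat, the scaffold that gathers signalling proteins below the receptor, had 6.24, 6.51, 5.83 and 6.0 and then 5.77, 5.16, 4.10 and 4.54, a difference of -1.25 ± 0.395 (SE). For Themis and Lat the authors' deposited table gives FDR values of 0.114 and 0.579. The 5 genes without overlap, Cd3d included, were 38.5% of this role, against 26.3% of the lower genes of the table. The groups overlapped in the other 8 genes of this role, among them Txk, a Tec family kinase, where tumor 18 (3.48) lay below tumor 36 (3.87) and tumor 39 (3.80). Skap1 and Ubash3a, an adaptor and a phosphatase of this pathway, differed by -1.77 ± 0.602 and -1.56 ± 0.624 (SE).

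**Figure D3:**
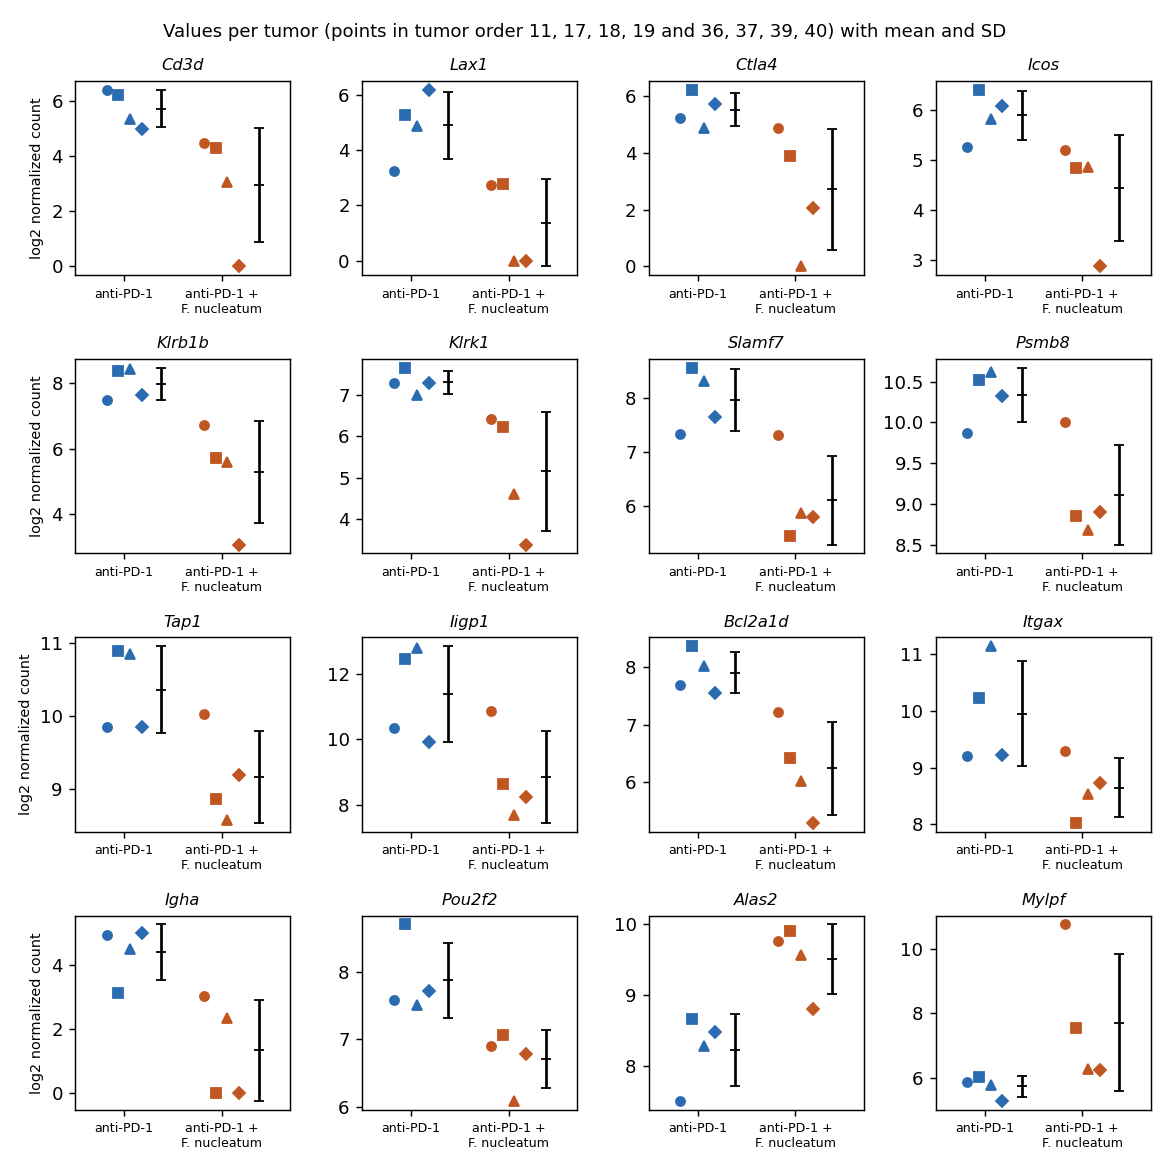
Log2 normalized counts of 16 of the genes per tumor (points, in the tumor order 11, 17, 18, 19 and 36, 37, 39, 40) with the mean and SD of each group of 4. The groups do not overlap for Cd3d, Lax1, Klrb1b or Alas2, whereas tumor 36 lies within the anti-PD-1 range for Psmb8, Tap1, Iigp1 and Itgax.

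A further 13 genes encode costimulatory and inhibitory receptors, cytokines, and adhesion and migration receptors of T cells, and each had a lower mean, with a median difference of -1.58. The authors' deposited table gives none of them an FDR below 0.05. Ctla4, an inhibitory receptor of activated and regulatory T cells, had 5.22, 6.21, 4.88 and 5.71 with the antibody alone and 4.86, 3.90, 0.00 and 2.06 with F. nucleatum. Icos, its costimulatory neighbour 62.1 kb away on chromosome 1, had 5.26, 6.41, 5.83 and 6.09 and then 5.21, 4.85, 4.87 and 2.88. In both, the groups were separated by less than 0.1 on the log2 scale between tumor 36 and the lowest anti-PD-1 tumor, while the other 3 F. nucleatum tumors lay further below. Tnfrsf4, the costimulatory receptor OX40, was nearly constant in the anti-PD-1 tumors (6.18, 6.24, 6.17 and 6.20) and spread from 3.65 in tumor 37 to 5.82 in tumor 36 with F. nucleatum. Cd96, a receptor of T and NK cells for nectin family ligands, had 4.40, 4.05, 4.48 and 4.58 and then 3.04, 0.00, 2.73 and 0.00, on 97 reads in all. These 4 were the genes of this role without overlap (30.8%, against 26.3% of the lower genes of the table).

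Il2ra, the high-affinity chain of the interleukin-2 receptor, had 6.04, 6.74, 5.58 and 6.65 with the antibody alone and 5.71, 3.36, 4.56 and 4.47 with F. nucleatum, where tumor 36 again lay within the anti-PD-1 range. Cd6, a T cell surface glycoprotein, and Jaml, an adhesion molecule, differed by -1.58 ± 0.554 and -1.57 ± 0.586 (SE) and overlapped in the same way. Ltb, which encodes lymphotoxin beta, had 5.94 in tumor 37, above 5.41 and 5.75 in tumors 18 and 19. Csf2, the cytokine GM-CSF, had 3, 27, 18 and 9 reads with the antibody alone and 0, 0, 0 and 6 reads with F. nucleatum. Cd40lg, the T cell ligand of CD40, was read only in tumors 17 and 19 (15 and 7 reads). Set against a floor of 3 reads over the F. nucleatum group, its level was at least 7.99-fold lower there.

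All 4 genes of the NK receptor role were lower without overlap, where 12.4% of the table and 26.3% of its lower genes were. The role was assigned by hand after the values were seen, so this count does not test it. The median log2 difference was -2.42, and in all 4 tumor 36 had the highest value of the F. nucleatum group. Klrb1b (chromosome 6, 128813706 to 128826331), an inhibitory lectin-like receptor with close relatives in the same gene cluster, had 7.49, 8.37, 8.43 and 7.64 with the antibody alone and 6.73, 5.73, 5.60 and 3.07 with F. nucleatum. It fell from 1.84 ± 0.580 FPKM to 0.374 ± 0.293 FPKM (SD, n = 4 per group), with an FDR of 0.00628 in the authors' deposited table, the lowest of the lower genes described here. Slamf7, a SLAM family receptor of NK cells, cytotoxic T cells and plasma cells, had 7.33, 8.55, 8.31 and 7.64 and then 7.31, 5.46, 5.88 and 5.81. It fell by 1.84 ± 0.499 (SE, FDR of 0.0199 there), and tumor 36 lay barely under tumor 11. Klrk1, the activating receptor NKG2D, had 7.28, 7.65, 6.99 and 7.30 with the antibody alone and 6.41, 6.23, 4.61 and 3.39 with F. nucleatum. Klrd1 (CD94), the partner of NKG2 receptors, lies 11.5 kb from Klrk1 and had 6.31, 6.71, 5.91 and 6.44 and then 5.88, 4.11, 4.46 and 0.00. The FDR values of Klrk1 and Klrd1 in the authors' deposited table were 0.201 and 0.867. Tumor 40 was the lowest of the group in 3 of the 4 genes, with 7, 9 and 0 reads for Klrb1b, Klrk1 and Klrd1.

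Genes of B cells and immunoglobulins made up 9 of the 71. All 9 were lower (median -1.69, or -3.18 with the genes at 0 in the F. nucleatum group set to the bound that a floor of 3 reads gives), and the authors' deposited table gives none an FDR below 0.05. Igha, the constant region of immunoglobulin A, had 31, 5, 21 and 39 reads with the antibody alone and 9, 0, 5 and 0 reads with F. nucleatum. On the log2 scale these were 4.94, 3.13, 4.48 and 4.99 against 3.04, 0.00, 2.33 and 0.00, a difference of -3.04 ± 0.90 (SE) without overlap. Ighg2c, Ighv7-1 and Igkv7-33, further immunoglobulin segments, were at 0 in every F. nucleatum tumor and were carried by 1 anti-PD-1 tumor each, with 90.9% of the normalized counts of Ighg2c in tumor 11, 90.3% of those of Ighv7-1 in tumor 19 and all of those of Igkv7-33 in tumor 19. Set against the floor of 3 reads over the group, these were at least 13.4-fold, 17.8-fold and 18.9-fold lower in the F. nucleatum tumors, a bound on counting error that does not cover the spread between tumors. Immunoglobulin segments share sequence, so the assignment of their reads is uncertain. Fcrl5, a receptor of B cells for immunoglobulin, had 9, 62, 32 and 0 reads and then none, at least 37.4-fold lower against the same floor. Its log2 difference of -3.73 was the most negative of the 71 genes, yet tumor 19 was at 0 like the F. nucleatum tumors. Over the 9 genes the anti-PD-1 tumors were uneven: the mean of the centred log2 values was 1.49 and 1.64 in tumors 11 and 19 and 0.53 and 0.21 in tumors 17 and 18. Pou2f2 (OCT-2), a transcription factor of B cells, was the other gene without overlap, with 7.58, 8.70, 7.51 and 7.72 against 6.90, 7.06, 6.09 and 6.78 (FDR of 0.0669 in that table), and it was named after its values were seen. Igha and Pou2f2 were 22.2% of this role, against 26.3% of the lower genes of the table.

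Antigen processing and interferon-inducible genes numbered 9, all lower (median log2 difference -1.22). Psmb8 and Psmb9, catalytic subunits of the immunoproteasome, and Tap1, which with TAP2 carries peptides into the endoplasmic reticulum, are neighbours on chromosome 17. Psmb9 (34181987 to 34187764, minus strand) and Tap1 (34187553 to 34197225, plus strand) overlap at their starts, and Psmb8 (34197721 to 34201454, plus strand) begins 496 bases after Tap1 ends. Psmb8 had 9.87, 10.52, 10.62 and 10.32 with the antibody alone and 10.01, 8.85, 8.68 and 8.90 with F. nucleatum. It fell by 1.22 ± 0.345 (SE), with 6.05 ± 1.20 FPKM under the antibody alone and 2.76 ± 1.43 FPKM with F. nucleatum (SD, n = 4 per group), with an FDR of 0.0148 in the authors' deposited table. Tap1 had 9.85, 10.89, 10.85 and 9.84 and then 10.03, 8.86, 8.58 and 9.19, and Psmb9 had 8.40, 9.74, 9.44 and 8.54 and then 8.68, 7.51, 7.76 and 7.32. In all 3 genes tumor 36 lay among the anti-PD-1 values, and tumors 37, 39 and 40 lay below all of them. The log2 differences of Tap1 and Psmb9 were -1.19 ± 0.431 and -1.21 ± 0.447 (SE), with FDR values of 0.0669 and 0.131 in that table.

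Iigp1, an interferon-inducible GTPase with close copies, had 10.33, 12.46, 12.80 and 9.91 with the antibody alone and 10.85, 8.63, 7.67 and 8.22 with F. nucleatum. Tumors 17 and 18 stood well above tumors 11 and 19, and tumor 36 lay between these pairs. At 9.99 ± 8.17 and 1.87 ± 2.17 FPKM (mean ± SD, n = 4 each) it had an FDR of 0.565 in the authors' deposited table. Tumor 36 was the highest of the F. nucleatum tumors in 9 of the 9 genes of this role and within the anti-PD-1 range in 9 of 9. Tumors 37, 39 and 40 each lay below all anti-PD-1 tumors in 9 of 9, against 67.1%, 65.4% and 65.4% of the table's lower genes. So 0 of the 9 were without overlap over all 8 tumors, whereas the NK receptor role, in which tumor 36 also lay below every anti-PD-1 tumor, had 4 of 4. The difference between the roles was not tested, and the roles were assigned after the values were seen.

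Promoter windows from RefSeq on GRCm38.p6, which run from 250 bases before to 50 bases after a transcript start, were found for 46 of the 71 genes, 41 of them lower. They are shown for the 2 neighbouring starts of the peptide supply cluster and for 2 lower genes with an interferon-type motif, with capitals marking each match on either strand to the GAS motif (TTCNNNGAA, an element of interferon-gamma responses) or to an ISRE core (GAAA, any 2 bases, then GAAA, bound by interferon regulatory factors). The Tap1 window is chr17:34187306-34187605 on the plus strand and shares 275 bases with the window of Psmb9 on the minus strand. The others are chr17:34197945-34198244 (plus strand) for Psmb8, chr1:172590519-172590818 (minus strand) for Slamf8 and chr19:34601919-34602218 (minus strand) for Ifit1bl1.
Tap1: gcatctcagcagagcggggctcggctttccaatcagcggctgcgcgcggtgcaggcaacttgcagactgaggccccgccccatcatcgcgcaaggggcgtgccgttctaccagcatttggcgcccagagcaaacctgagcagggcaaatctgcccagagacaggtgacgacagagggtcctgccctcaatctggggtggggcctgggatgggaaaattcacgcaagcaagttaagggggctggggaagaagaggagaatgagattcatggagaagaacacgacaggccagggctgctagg
Psmb8: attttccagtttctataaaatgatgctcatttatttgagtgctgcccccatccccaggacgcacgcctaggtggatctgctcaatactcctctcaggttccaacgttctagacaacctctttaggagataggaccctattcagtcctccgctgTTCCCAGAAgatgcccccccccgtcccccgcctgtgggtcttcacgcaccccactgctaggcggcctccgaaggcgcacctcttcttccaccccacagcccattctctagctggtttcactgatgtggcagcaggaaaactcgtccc
Slamf8: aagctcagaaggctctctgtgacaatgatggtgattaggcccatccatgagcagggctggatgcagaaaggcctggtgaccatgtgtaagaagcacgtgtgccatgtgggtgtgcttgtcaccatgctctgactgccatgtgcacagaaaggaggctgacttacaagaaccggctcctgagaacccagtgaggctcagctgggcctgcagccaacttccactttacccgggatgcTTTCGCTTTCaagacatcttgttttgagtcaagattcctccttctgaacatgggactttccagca
Ifit1bl1: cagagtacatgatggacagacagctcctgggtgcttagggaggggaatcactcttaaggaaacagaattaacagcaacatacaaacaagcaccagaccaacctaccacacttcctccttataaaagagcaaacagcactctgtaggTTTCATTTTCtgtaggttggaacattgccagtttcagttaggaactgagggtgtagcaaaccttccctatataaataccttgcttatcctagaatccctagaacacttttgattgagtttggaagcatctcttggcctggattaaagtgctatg
The Tap1 and Psmb9 windows hold neither motif, Psmb8 holds a GAS match, and Slamf8 and Ifit1bl1 each hold an ISRE core. Over the 47 windows of the 41 lower genes, 7 (14.9%) held a GAS match and 7 (14.9%) an ISRE core, where 8.30% and 3.44% of all 32851 windows of this length did. Another motif searched, for NF-kB (GGG, any 5 bases, then CC), was in 44.7% of the lower genes' windows and in 50.8% of all windows, and is not marked above. The 3 motifs were chosen after the genes' values were seen, and either strand counted as a match. The GAS matches were in Cd300e, Cd3d, Cd96, Fpr2, Ltb, Psmb8 and Serpina3g, and the ISRE cores in Gpr18, Ifit1bl1 (2 windows), Jaml, Slamf8, Tlr11 and Tnfsf13b. These are matches of letters, not measured binding, and no gene held both. Ifit1bl1, an interferon-induced gene with close copies, differed by -1.18 ± 0.366 (SE) with values of 5.66, 6.08, 5.19 and 6.02 and then 5.24, 4.91, 4.03 and 4.07. Ifit1bl1, Fpr2, Gpr18, Serpina3g and Tnfsf13b were named after their values were seen.

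Myeloid genes made up 13 of the 71, all lower, with a median log2 difference of -1.29. The groups did not overlap in 2 of them (15.4%, against 26.3% of the lower genes of the table). Bcl2a1d, an anti-apoptotic BCL2 relative with near-identical copies, so that its reads are uncertain, had 7.70, 8.37, 8.02 and 7.55 with the antibody alone and 7.22, 6.42, 6.02 and 5.29 with F. nucleatum. It fell by 1.68 ± 0.441 (SE) without overlap, at 4.45 ± 1.12 FPKM and 1.52 ± 0.896 FPKM (SD, n = 4 per group, FDR of 0.0177 in the authors' deposited table), and was the only myeloid gene of the 13 with such an FDR. Itgax, the integrin CD11c of dendritic cells and macrophages, had 9.20, 10.22, 11.13 and 9.22 and then 9.29, 8.03, 8.54 and 8.73. Slamf8, a SLAM family receptor of macrophages, had 7.61, 9.06, 8.68 and 7.30 and then 7.79, 6.44, 6.28 and 6.08. In both, tumors 17 and 18 were the 2 highest and tumor 36 lay just above tumors 11 and 19.

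Cd300lf and Cd300e, paired regulatory receptors of myeloid cells 54.0 kb apart on chromosome 11, differed from each other in their pattern. Cd300lf had 8.56, 9.90, 9.66 and 9.59 with the antibody alone and 9.22, 7.44, 8.34 and 8.05 with F. nucleatum. Cd300e had 2.53, 7.69, 7.52 and 4.92 and then 4.28, 4.01, 4.29 and 5.40, so its lowest value of all was an anti-PD-1 tumor and its difference of -1.17 ± 1.26 (SE) was smaller than its error. Hcar2, a receptor of hydroxycarboxylic acids, butyrate and niacin, was high in both groups (7.04 ± 4.29 and 2.96 ± 1.07 FPKM, mean ± SD, n = 4 each). It had 7.87, 10.31, 9.32 and 10.40 against 8.68, 7.65, 8.40 and 9.03, and overlapped in 3 of the F. nucleatum tumors. Tlr11, a Toll-like receptor, had 19, 20, 3 and 5 reads and then 4, 0, 0 and 3 reads. Reg3g, an antimicrobial lectin of epithelia and 1 of 4 other lower genes, had 6.33 in tumor 11 and 3.90, 4.02 and 4.37 in the other anti-PD-1 tumors, where F. nucleatum tumor 37 had 4.01.

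**Figure D4:**
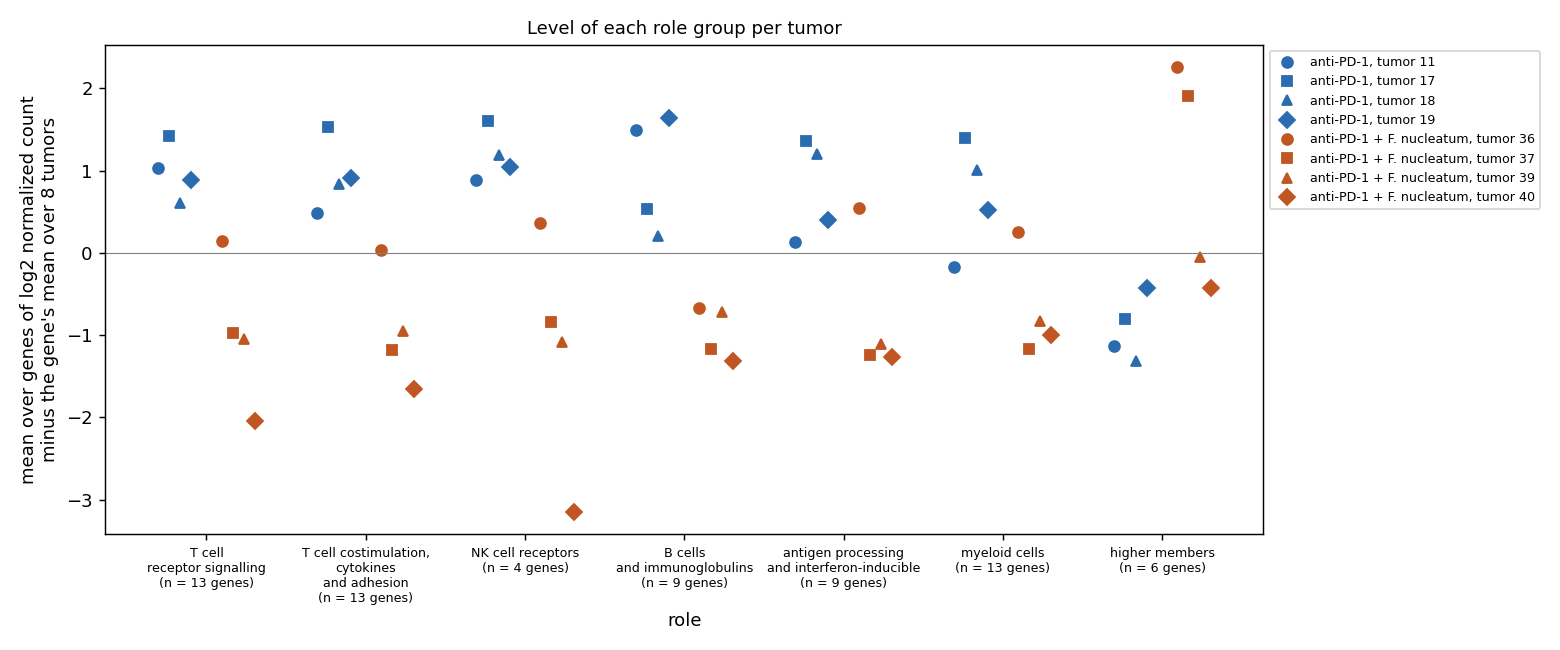
Mean over the genes of each role of log2 normalized counts minus the gene's mean over 8 tumors (vertical axis), 1 point per tumor, for the 7 roles (horizontal axis). Tumor 36 lies above the other F. nucleatum tumors in every role drawn and, for antigen processing and interferon-inducible genes, at 0.54, above tumors 11 (0.13) and 19 (0.40).

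Tumor 36 was the highest F. nucleatum tumor in most of the lower genes, while the lowest tumor differed between genes. It was the highest of the 4 in 48 of 65 genes (73.8%, against 54.4% of the 353 lower genes of the table), tumor 37 in 4, tumors 39 and 40 in 3 each, and 7 genes had no read in any of them. Tumors 37, 39 and 40 lay below every anti-PD-1 tumor in 54, 50 and 51 of the 65 genes, or 83.1%, 76.9% and 78.5%, where the lower genes of the table gave 67.1%, 65.4% and 65.4%. Tumor 36 did so in 22 (33.8%, against 35.7%). Without tumor 36, 45 of the 65 genes (69.2%) had no overlap between groups in place of 18, and 197 of the 353 lower genes of the table (55.8%) in place of 93. These shares were not tested against each other, and over all 752 genes the step brought the share lower without overlap from 12.4% to 26.2%. Averaged over the 65 genes, centred log2 values were 0.65, 1.27, 0.79 and 0.85 in the anti-PD-1 tumors and 0.08, -1.10, -0.96 and -1.58 in the F. nucleatum tumors. Tumor 36 was also the tumor with the highest muscle markers, whose part in this was not tested. Without tumors 36 and 37, 65 of the 71 genes were lower and 5 higher, and their median was -1.78.

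The anti-PD-1 tumors also differed by role. For antigen processing and interferon-inducible genes the centred means were 0.13, 1.36, 1.20 and 0.40, and for myeloid genes -0.17, 1.40, 1.01 and 0.52, so tumors 17 and 18 were highest in both roles. T cell receptor signalling ran differently, with 1.03, 1.42, 0.60 and 0.88, where tumor 18 was lowest. In the F. nucleatum tumors tumor 40 was lowest for T cell receptor signalling (-2.04), costimulation (-1.65) and NK receptors (-3.15), while for the interferon and myeloid roles it lay close to tumors 37 and 39.

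In 5 of the 6 higher genes tumors 36 and 37 were the 2 highest of the F. nucleatum group, and the exception was Add2. The mean of the centred log2 values of the 6 was 2.26 and 1.91 in tumors 36 and 37 and -0.05 and -0.43 in tumors 39 and 40. Tumors 36 and 37 are those with the highest muscle and keratinocyte markers, whose part in these values was not tested. Alas2 (chromosome X, 150547375 to 150570638), the erythroid enzyme that starts heme synthesis, had 7.51, 8.66, 8.28 and 8.48 with the antibody alone and 9.77, 9.90, 9.56 and 8.81 with F. nucleatum, and rose by 1.28 ± 0.351 (SE) without overlap, at 2.02 ± 0.601 FPKM and 4.94 ± 1.51 FPKM (SD, n = 4 per group, FDR of 0.00228 in the authors' deposited table). The 7 of 10 red blood cell markers in the table, Alas2 included, summed to 357.7 to 657.7 FPKM and 582.4 to 1456.9 FPKM in the 2 groups. Add2, a membrane skeleton protein of red cells and neurons, had 9.41, 8.77, 8.49 and 10.01 and then 9.36, 9.76, 10.65 and 10.97, highest in tumors 39 and 40. Mylpf, a light chain of fast skeletal muscle myosin, had 5.87, 6.01, 5.78 and 5.28 and then 10.75, 7.54, 6.26 and 6.25, without overlap but with 75.8% of its normalized counts in tumor 36. Mb, the oxygen store myoglobin, was read only in tumors 36 and 37 (137 and 17 reads), at least 47.1-fold higher in the F. nucleatum group against a floor of 3 reads over the anti-PD-1 group. Endou, an endoribonuclease, had 70.3% of its normalized counts in tumor 37, and Pla2g2d, a secreted phospholipase of lymphoid tissue, had 0.00, 0.00, 2.02 and 3.27 and then 5.27, 5.16, 3.96 and 0.00, at 0 in tumors of both groups.

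Pathway lists overlapped largely with the 71 genes, so their values mostly repeat those above. The table held 13 of 34 NK and lymphocyte receptors (9 of the 13 among the 71), all lower with a median log2 difference of -2.02, of which Slamf7, described above, has an FDR below 0.05 in the authors' deposited table. It held 7 of 30 lymphocyte signalling and transcription genes (6 among the 71, median -2.0) and 7 of 38 cytokines and cytokine receptors (3 among the 71, median -1.73), all lower and none with such an FDR. Of 15 genes of antigen processing and loading, 3 were in it, namely Psmb8, Psmb9 and Tap1. It held 1 of 32 innate sensors and adaptors, 2 of 33 interferon-stimulated effectors, 4 of 30 Fc and phagocyte receptors, 2 of 19 B cell and immunoglobulin genes and 1 of 30 complement genes, all lower, and 5 of 12 T cell receptor and CD3 chains, of which 1 had an FDR under 0.05. No gene of the antimicrobial and granulocyte list (22) or of the butyrophilin and Skint list (16) was in it. Genes outside the table were not analysed here. By the table's own annotation, 24 of the 71 genes were part of the adaptive immune response and 15 of the innate immune response. Every one had a lower mean, at medians of -1.80 and -2.36, where 65 of all 71 had a lower mean. The T cell receptor signaling pathway held 7 (median -2.78). Some other terms also held higher genes: hemopoiesis had 6 lower and 4 higher, immune response 16 and 2, T cell activation 10 and 1, and leukocyte activation 37 and 1.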

How the data were processed

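Libraries were stranded TruSeq preparations of TRIzol RNA, per the labels' protocols. Tools listed in the submitters' processing notes, without role or order, are STAR 2.5, Cuffnorm, FastQC and DESeq 1.22.1, with build mm10. The sources used here do not say whether counting used strand. Expression was deposited by the authors as log2 of a normalized count plus 1, since their antilogs less 1 were whole multiples of 1 step per tumor (largest deviation 5.18e-05 reads), which recovers reads per gene but no library total. FPKM values were deposited by the authors as well. The p-value and FDR are the authors', and the sources used here do not give the test behind them.

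R 4.3.3 and limma 3.58.1 (eBayes with trend) were run on the deposited log2 values of all 752 genes. The fit was also run on simulated normal values with a common spread, adjusted over these genes alone. That run does not check the fit at unequal spreads or with many zeros, or the wider adjustment described next. Because the table is selected, Benjamini-Hochberg adjustment took 29424 genes, the smallest number the deposited FDR values allow, with genes outside the table at a p of 1. Summaries came from Python 3.11.15 (pandas 2.3.3, numpy 2.4.6, matplotlib 3.10.9). Floors and bounds cover counting error only. Gene positions come from GENCODE M21 (GRCm38, the assembly of mm10), where all 752 gene IDs were found.

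The genes, roles and lists were chosen with earlier results of these data known, and roles were assigned by hand after the values were seen. The higher genes were given a role of their own, so the direction within each role was fixed by the assignment. Named genes are those with an authors' FDR under 0.05, the 10 lower and 10 higher without overlap with the smallest limma p, 3 per immune term, the 5 most abundant, the 5 most carried by 1 tumor, and list members (43 in all); any other gene is marked as chosen later. Alternatives were other values, filters, scalings, models, thresholds, gene selections and left-out tumors. Of the genes, 1 is not reported here by name.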

Additional observations from a re-analysis of the deposited data

Results flagged for a closer look

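Of 86 groups of 4 tumors tested among the named genes, 5 held a tumor far from the other 3 on the log2 scale, and chance flags about 1 group in 20. For Icos F. nucleatum tumor 40 was low at 2.88, and for Csf2 the same tumor was high at 2.88 where the other 3 had no read. Psmb8 in F. nucleatum tumor 36 was high at 10.01. Sla in anti-PD-1 tumor 18 was high at 10.14. Igkv7-33 in anti-PD-1 tumor 19 was high at 5.39, the only tumor with reads of that segment.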

How the results depend on the processing

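The limma count stayed at 0 lower and 0 higher genes in all 19 alternatives, including adjustment over the 752 genes alone and each tumor left out (0 to 0). With a tumor left out, 64 to 65 of the 71 genes were lower and 6 higher (6 to 6), the median log2 difference ran from -1.76 to -1.33, and the genes without overlap numbered 19 to 45 lower and 2 to 3 higher. The highest count was without tumor 36 (45), and without tumor 11 it was 29. Without tumors 36 and 37 it was 47. Leaving tumors out can only keep or raise such a count. Shares over the table were computed only for the step without tumor 36. Centring each tumor to the same median of the table, which shifts every difference by -0.61, gave 42 lower and 0 higher genes without overlap. The share over the table after this shift was not computed, so the 42 has no background beside it. On log2(FPKM + 1) the median difference was -0.29 (the median level of these genes was 0.281 FPKM), and at a pseudocount of 0.1 it was -1.03. With genes at 0 in a whole group set to their bound it was -1.56. Keeping the rows carried by tumor 37 gave 10 higher genes. Keeping the named families gave 104 lower genes, 34 of them without overlap, where 93 of the 353 lower genes of the table had none. At an FDR below 0.01 in the table the authors deposited, 1 lower gene (Klrb1b) passed in place of 6. The other alternatives left each count within 1.5 times, and none of 473 values of the 43 named genes changed sign. The 11 settings per gene include a permutation test, which keeps the main difference, so a sign could not change there. Igkv7-33 went from -1.35 to 0.00 without anti-PD-1 tumor 19. No paired analysis was made because the labels do not link a tumor of one group with a tumor of the other. Depth limits the genes with few reads, 11 of them under 100 in all.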
